A study of Mus musculus with 5 samples.

Results

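The 2 embryonic stem (ES) cell lines of the NOD mouse were set against the 1 ES cell line of the NZB mouse, with the ES cell lines B6 and v6.5 as outside points of comparison. Genes were taken where both NOD libraries, each on its own, lay at least 2-fold from NZB in the same direction after the libraries had been rescaled for composition. This held for 1755 of the 14280 genes tested, out of 24016 in the table. Each such gene's level in the B6 and v6.5 libraries was then placed on the NOD side or on the NZB side.

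NOD mice develop autoimmune diabetes spontaneously, and the design also names NZB as an autoimmune-prone strain. The NOD group held replicates 1 and 5, and NZB, B6 (strain C57BL/6) and v6.5 (129SvJae crossed with C57BL6) had 1 library each, so that 5 libraries of 4 strains were available. All lines had been isolated from embryos and grown in 2i, a medium that blocks the kinases MEK and GSK3, and the study states that no feeder cells were present. The labels name no engineered allele and no further treatment, age or sex. The deposited header gives NOD replicate 5 a name that joins the numbers 5 and 6, so whether it is 1 line is not known, and of its 5 directories 2 carry the name B6 while v6.5 is absent. Whether the library labelled v6.5 is of that line or a second B6 library is not known, and v6.5 below means the library so labelled. ES cells stand for the inner cell mass of the blastocyst. In 2i they are held in a naive state, in which MEK to ERK signalling is low and Wnt targets are active because GSK3 is blocked.

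The libraries held 7713133 recovered reads in NOD replicate 1 and 21387796 in NOD replicate 5, against 9582669 in NZB, with 8594283 in v6.5 and 13431741 in B6. The ribosomal precursor Rn45s took 14.3% and 1.95% of the reads of NOD replicates 1 and 5, against 1.98% in NZB, and 41.4% in B6. Values are given as normalised reads, which are the deposited values divided by a TMM composition factor. Without that factor the median log2 difference of all genes moved by -0.16, so every difference below is relative to the TMM scale. ES cell identity was seen in all libraries. The summed level of 8 naive and core pluripotency markers was 30180 and 59260 normalised reads in NOD replicates 1 and 5, against 45860 in NZB, and all 8 markers were present in each. Pou5f1, the core pluripotency factor also called Oct4, had 6646 and 10700 normalised reads in the NOD lines, against 5599 in NZB, and its adjusted p was 0.959 by limma.

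Of the 1755 genes, 940 were higher in both NOD lines (6.58% of genes tested) and 815 were lower (5.71%). At a 4-fold limit 554 genes passed (3.88%), 270 higher (1.89%) and 284 lower (1.99%). NZB lay outside the range of the 2 NOD libraries, by any margin, in 9482 genes (66.4%). Each single NOD library alone passed the 2-fold limit far more often, with 2043 genes higher and 1609 lower in replicate 1, and 1562 higher and 1516 lower in replicate 5. The NOD lines themselves differed by at least 2-fold in 3037 genes (21.3%). The median absolute log2 difference was 0.41 between the NOD mean and NZB and 0.49 between the 2 NOD lines.

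A pair of tests was run across all genes, and both rest on 1 residual degree of freedom, the pair of NOD lines, with the lone NZB library assumed to vary as they do. limma-trend on log2 values called 11 genes at an adjusted p under 0.05 (0.077%), 5 higher in NOD (0.035%) and 6 lower (0.042%), and 1034 genes had an unadjusted p under 0.05. edgeR's quasi-likelihood test on the recovered reads called 150 genes (1.05%), 50 higher (0.35%) and 100 lower (0.7%), among them all 11 of limma. All 150 passed the 2-fold limit in both NOD lines. The smallest absolute log2 difference called was 3.98 by limma and 1.99 by edgeR, so the tests reached only large differences. In what follows a gene is called when edgeR's adjusted p is under 0.05, and the genes that limma also called are named as such. No call was held with 1 NOD library left out, but those fits took their spread only from B6 and v6.5, labelled as different strains. The loss therefore cannot be read as dependence on 1 NOD line. Taking B6 and v6.5 as 1 group with both NOD lines present kept 58 of the 150 edgeR calls and 5 of the 11 limma calls. With B6 and v6.5 taken as 1 group to keep a degree of freedom, 0 genes were called by limma or by edgeR without NOD replicate 1, and 0 without NOD replicate 5. At an unadjusted p under 0.05 those fits had 1486 and 2051 genes by limma and 1643 and 2172 by edgeR.

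**Figure D1:**
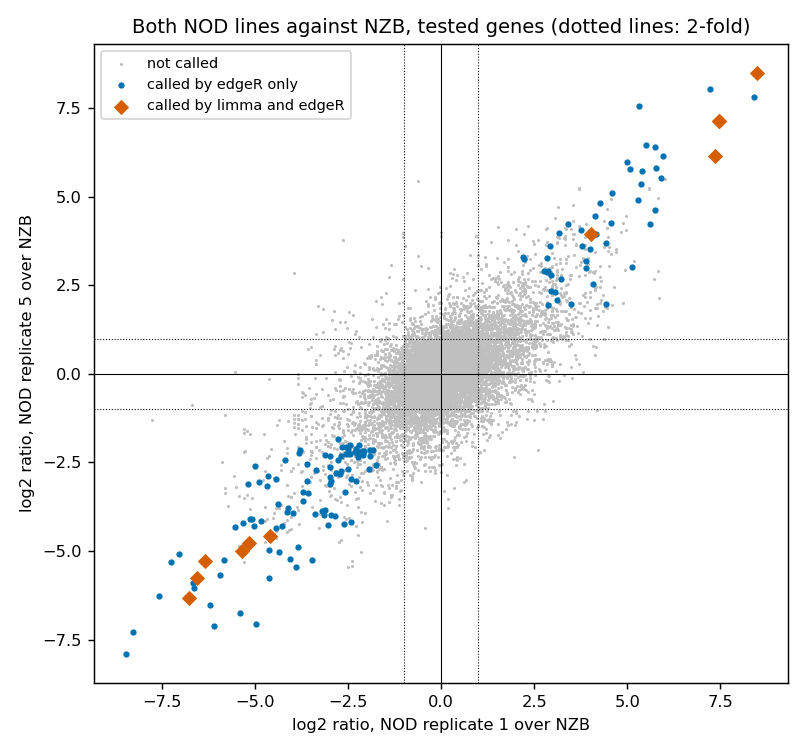
Log2 ratio of each tested gene over NZB in NOD replicate 1 (x axis) and NOD replicate 5 (y axis), 1 point per gene, with dotted lines at 2-fold. Orange diamonds are the 11 genes called by limma and edgeR, blue points the rest of the 150 called by edgeR, and all of them lie in the upper right or lower left corner, beyond 2-fold in both lines.

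The place of B6 and v6.5 was read on the log2 scale from 0 at NZB to 1 at the NOD mean. A library above 0.667 was counted with NOD, one below 0.333 with NZB, and the rest as between. Of the 940 genes higher in both NOD lines, B6 and v6.5 both lay with NZB in 321 (34.2%) and both with NOD in 219 (23.3%). Of the 815 lower genes, both lay with NZB in 272 (33.4%) and both with NOD in 206 (25.3%). Genes on which B6 and v6.5 parted were uneven among the lower genes. B6 lay with NZB and v6.5 with NOD in 69 genes, and the opposite held in 8. Among the higher genes these counts were 44 and 42. The median position over the lower genes was 0.24 for B6 and 0.54 for v6.5, and over the higher genes 0.41 for B6 and 0.39 for v6.5. The counts of both with NOD depended on the scale. On the deposited scale, without TMM, they were 118 of the higher and 349 of the lower genes.

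Among the 150 called genes, 10 higher genes had B6 and v6.5 both with NOD, so that the NZB library stood apart. These were Hist1h4j, 1110019D14Rik, Cyct, Slc4a5, Pgk1, Tdrd12, Tdrp, Laptm5, Eif4g3 and Csrp2. In 19 higher genes both lay with NZB, so that the NOD lines stood apart, namely Gm2022, Gm9376, Nlgn1, Gm2016, Gm1821, Mgll, 2310034O05Rik, AI506816, Ttll11, Gm5662, Plau, Ipp, Tmem92, Gm12794, Gpr124, Krt18, Scarna6, Snord22 and Dazl. The other 21 higher genes had at least 1 of these libraries between. B6 lay with NOD in Agpat9 and Hist1h2bm. It lay with NZB in Rprl3, Gm1995, Grb14, Krt8 and Stra8. v6.5 lay with NOD in Gm15772, Rpl26, Gm4975, Hist4h4 and Steap2, and with NZB in Capn6, Mael and Ryr2. Both were between in Moxd1, Uggt2, Fam43a, Rps2, Mir6516 and Snord17.

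Among the 100 called lower genes, 18 had B6 and v6.5 with NOD and NZB apart. They were Tnn, Fosb, Fos, Adamts19, Nrbp2, Pmel, S1pr1, Stxbp6, Slfn9, Pou4f1, Rpl3, Eml1, Ly6g6e, Sfi1, Trpm1, Iffo2, Jun and Tiam1. In 34 both lay with NZB and the NOD lines stood apart, namely 5730507C01Rik, Igfbp4, A2m, Loxl2, Cemip, Ndufa4l2, Ccdc141, 2810417H13Rik, Abcb1a, Slc16a3, Vim, Kpna2, Pla2g1b, Aire, Ier3, Abcb1b, Col11a1, Cdk6, Prelid2, Myh13, Tpi1, Ldha, Vcp, Anxa2, Tmsb4x, Egln3, Arhgap30, Frmd4b, Pgm2, Bnip3, Ndrg1, Epha4, Pfkl and Aldoc. B6 lay with NZB and v6.5 with NOD in 12, among them Col1a1, Sp5, Itga11, Tmem211, Tagln, Col8a1, Lef1, Fbln2, Col6a1, Smpdl3b and Ccdc136, and the opposite split was seen in 0. B6 lay with NZB and v6.5 between in 18, namely Tnc, Col1a2, Cav1, Lox, Col3a1, Col12a1, Adamts5, Thbs1, Acta2, Ccdc80, Pappa, Col5a2, Angptl2, Cd44, Ccnd2, Crtac1, Dhrs4 and Tiam2. v6.5 lay with NOD and B6 between in Gbp9, Card14, Lama1, Dusp1, Ctgf and Col5a1, and v6.5 with NZB and B6 between in 2300002M23Rik, Kbtbd11 and Ahcy. B6 lay with NOD and v6.5 between in Slfn8 and Ushbp1, and both were between in Bhlhe40, Kank3, Copz2, P4ha1, Stard3nl, Rcn1 and Sec24c.

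**Figure D2:**
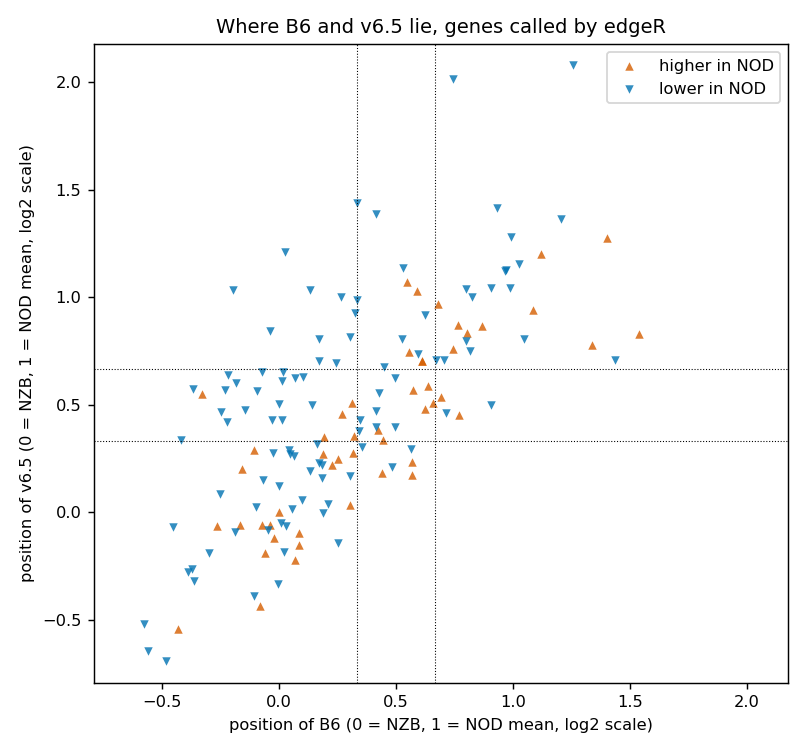
Position of B6 (x axis) and v6.5 (y axis) between NZB (0) and the NOD mean (1) on the log2 scale for the 150 called genes, with dotted lines at 0.333 and 0.667. Orange triangles are the 50 genes higher in NOD and blue triangles the 100 lower ones. The upper left field holds 12 lower genes and 0 higher ones, and the lower right field is empty.

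Extracellular matrix and contractile genes were low in both NOD lines. Fibrillar collagens give connective tissue its strength, lysyl oxidases cross-link them, and smooth muscle actin and its partners form contractile fibres. Of 34 genes of this list, all tested, 24 were at least 2-fold lower in both NOD lines and 0 higher, and 17 were called lower. Over all genes tested, 6.58% were higher and 5.71% lower in both lines, and edgeR called 0.35% higher and 0.7% lower. The counts of this list and of the lists below are to be read beside these shares. The median log2 difference was -2.66 (-2.98 in NOD replicate 1 and -3.01 in NOD replicate 5), beside 0.02 over all genes tested. Relative to NZB the list's median was 0.09 in B6 and -2.05 in v6.5. In the 24 genes B6 lay with NZB in 21 and with NOD in 0, and v6.5 lay with NOD in 11, between in 10 and with NZB in 3.

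Col1a1, a chain of type I collagen on chromosome 11 (94797584 to 94813170 in mm9, plus strand), had 34.8 and 48.8 normalised reads in NOD replicates 1 and 5, against 3956 in NZB, with 1826 in B6 and 160.3 in v6.5. It was 114-fold lower than NZB in replicate 1 and 81.1-fold lower in replicate 5, with a log2 difference of -6.55 (SE 0.49) and an adjusted p of 0.0129 by limma and 9.97e-06 by edgeR. Both NOD libraries were below all others. Col1a2, the partner chain on chromosome 6 (4455697 to 4491543, plus strand), had 22.7 and 48.3 normalised reads in NOD, against 1914 in NZB, and limma called it at an adjusted p of 0.0429. Col3a1 (19.6 and 25.4, against 838) and Col12a1 (36.3 and 47.3, against 1334) were also called by limma, at adjusted p of 0.0497 and 0.0418. Their order over the lines was the same as for Col1a1, save that B6 exceeded NZB in Col12a1, with 1716 normalised reads.

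The promoter of Col1a2 is shown because it is the leading collagen whose start is in the reference table. It spans 250 bases before to 50 after the start (chr6:4505368-4505667, plus strand, RefSeq, GRCm38.p6), and capitals mark the letters of the CCAAT box, read as CCAAT or its reverse ATTGG.
Col1a2: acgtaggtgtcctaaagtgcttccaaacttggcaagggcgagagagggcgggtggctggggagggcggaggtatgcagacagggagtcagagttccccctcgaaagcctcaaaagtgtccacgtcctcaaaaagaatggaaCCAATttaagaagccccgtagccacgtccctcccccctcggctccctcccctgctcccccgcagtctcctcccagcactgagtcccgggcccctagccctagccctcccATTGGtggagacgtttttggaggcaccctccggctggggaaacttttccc
CCAAT stood in 37.9% of all promoters of this length and in 2 of the 12 promoters found for the matrix genes lower in NOD, so the letters were not commoner in this group.

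Thbs1, thrombospondin 1, a matrix glycoprotein, had nearly equal NOD libraries, with 157 and 161 normalised reads, against 3846 in NZB, and limma called it with a log2 difference of -4.59 (SE 0.39, adjusted p 0.0162). It had 6900 normalised reads in B6 and 567 in v6.5, so the NOD lines were below all others. Igfbp4, a secreted binding protein of insulin-like growth factors, had 33.3 and 58.2 normalised reads in NOD, against 3238 in NZB, and limma gave an adjusted p of 0.0149. Both B6 (1611) and v6.5 (823) lay with NZB there, as they did for the protease inhibitor A2m, with 16.6 and 68.2 normalised reads in NOD, against 2731 in NZB. A2m was 164-fold lower in replicate 1 and 40.04-fold lower in replicate 5. Tnc, tenascin C, had 6.05 and 10.95 normalised reads in NOD, against 716 in NZB. Lox, the lysyl oxidase, had 9.08 and 38.3, against 1336. Acta2, smooth muscle actin, had 10.6 and 11.4, against 253, and Vim, vimentin, the intermediate filament of mesenchymal cells, had 54.4 and 232, against 2019. edgeR called all 4, at adjusted p from 5.99e-05 for Tnc to 0.00343 for Vim, and limma none of them.

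Matrix genes also mark fibroblasts, so the marker list of that cell type is not independent of the genes above. Of 16 tested fibroblast and feeder cell genes, 14 were lower in both NOD lines and 11 were called, with a median log2 difference of -3.82. The summed level of the 8 defining fibroblast markers was 130 and 187 normalised reads in NOD replicates 1 and 5, against 8386 in NZB, with 6782 in B6 and 722 in v6.5. This sum holds Col1a1, Col1a2, Col3a1, Lox and Acta2, which are given above, so it repeats them and is no separate support. Of these 8, Dcn, decorin, was at 0 reads in NZB and in NOD replicate 1 and at 2 reads in NOD replicate 5. Thy1, a surface protein of fibroblasts, had 30.2 and 10.5 normalised reads in NOD, against 44.5 in NZB, and was not called. In bulk RNA fewer cells of a type and less RNA per cell cannot be told apart, and the part of other cells in the matrix genes was not tested.

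**Figure D3:**
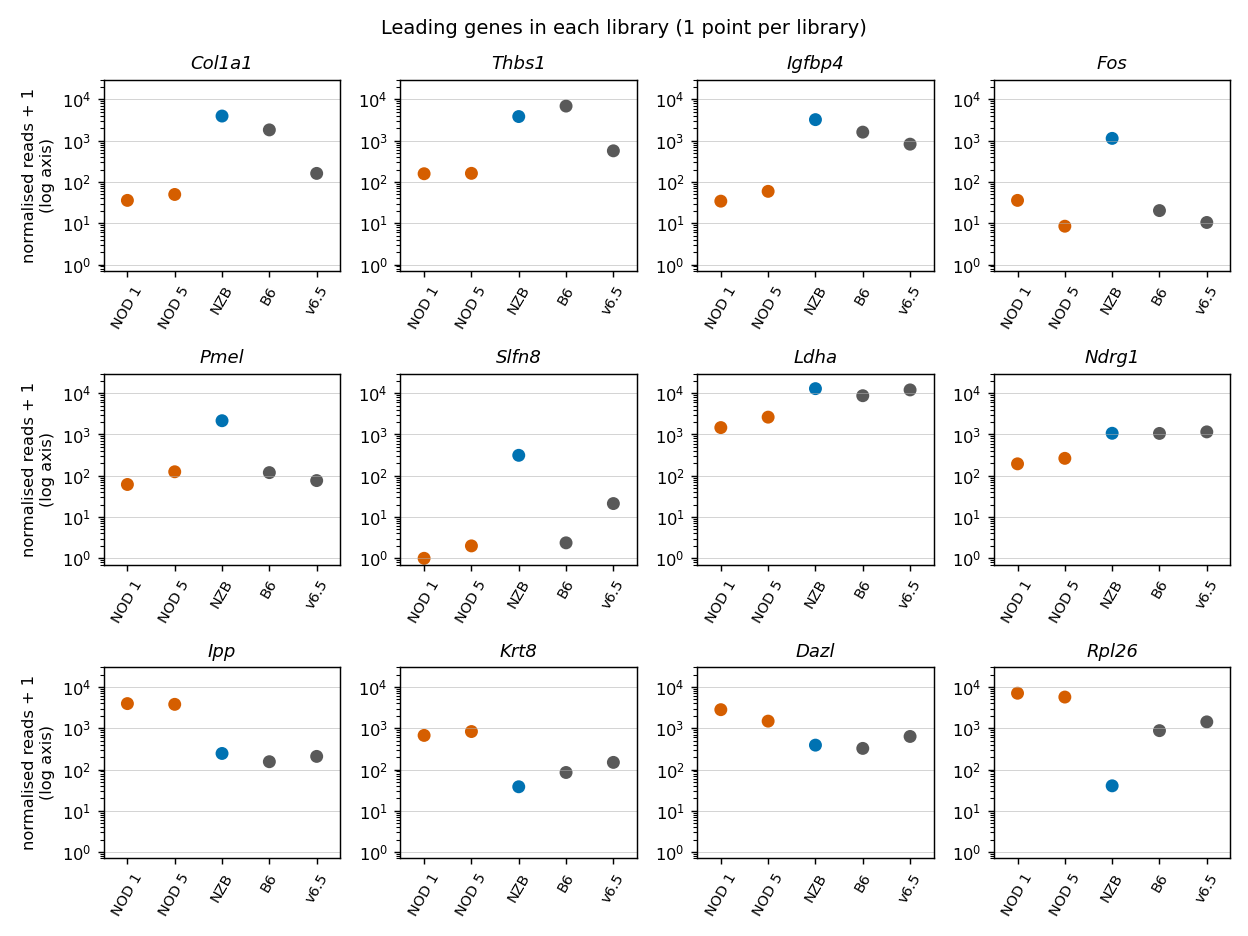
Normalised reads plus 1 on a log axis for 12 genes, 1 point per library, with the NOD lines in orange, NZB in blue, and B6 and v6.5 in grey. Col1a1 and Igfbp4 show both NOD points below 100 and NZB above 3000, Fos and Pmel show NZB alone high, Ldha and Ndrg1 show the NOD pair alone low, and Ipp shows the NOD pair alone high.

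A second group was the immediate-early genes, which are switched on within minutes of a growth factor or stress signal, and their products include the AP-1 factors Fos and Jun. Of 15 tested, 10 were lower in both NOD lines, 0 were higher, and 5 were called. Over all genes tested 5.71% were lower in both lines and edgeR called 0.7% lower. Fos, on chromosome 12 (86814851 to 86818219 in mm9, plus strand), had 34.8 and 7.47 normalised reads in NOD replicates 1 and 5, against 1137 in NZB, with 19.3 in B6 and 9.43 in v6.5. The NOD lines were 32.7-fold and 152-fold lower, so the pair differed 4-fold or more between themselves, and the adjusted p was 0.000382 by edgeR and 0.146 by limma. Fosb had 0 and 1.49 normalised reads in NOD, against 193 in NZB. On 3 reads in NOD, the ratio of NZB over NOD was 172 with a 95% counting interval from 57.8 to 839. Jun had 250 and 149.9, against 962, and both B6 (128) and v6.5 (33.7) were below the NOD lines. Dusp1, a phosphatase that switches off MAP kinases, had 156 and 476, against 2226, and was called with an edgeR adjusted p of 0.015, with B6 between. Ier3, also called, had 21.2 and 19.4 in NOD, against 174 in NZB, and both B6 (118) and v6.5 (109) lay with NZB. In 7 of the 10 lower genes B6 and v6.5 both lay with NOD.

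The promoter of Fos is shown as the leading gene of that group (chr12:85473640-85473939, plus strand, RefSeq, GRCm38.p6). Capitals mark TGACG, the core of the cAMP response element, which was searched together with its reverse CGTCA.
Fos: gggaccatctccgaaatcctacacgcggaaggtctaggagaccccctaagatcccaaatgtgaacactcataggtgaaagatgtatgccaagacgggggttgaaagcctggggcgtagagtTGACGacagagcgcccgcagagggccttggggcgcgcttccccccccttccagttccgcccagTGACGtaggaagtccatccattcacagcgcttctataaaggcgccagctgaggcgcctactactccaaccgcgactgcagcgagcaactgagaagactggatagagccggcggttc
These letters stood in 21.0% of all promoters of this length and in 5 of 9 promoters found for the immediate-early genes lower in NOD. The 9 promoters are few, and whether the letters bear on the difference from NZB was not tested.

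The level of ERK targets is read here with 2i in mind, since its MEK inhibitor acts above ERK. Of 15 tested, 8 were lower in both NOD lines, 0 were higher, and 2 were called, Fos and Ier3. Both are given above with the immediate-early genes, so their calls are repeated here and are no separate support. The median log2 difference was -2.12, and by edgeR it was -1.38. Taken line by line, NOD replicate 1 gave -2.00 and NOD replicate 5, which is the value without replicate 1, gave -1.29. Spry2, a feedback inhibitor of receptor signalling, had 169 and 470 normalised reads in NOD, against 1265 in NZB, and Etv4, an ETS factor, had 19.6 and 8.96, against 81.9, and neither was called. Of 16 Wnt targets 6 were lower in both lines, 1 was higher, and 3 were called lower. Sp5, a zinc finger factor switched on by β-catenin, had 1.51 and 0.9997 normalised reads in NOD, against 184 in NZB, with 48.2 in B6 and 4.04 in v6.5. Lef1, the factor that binds β-catenin at its targets, had 46.9 and 50.8, against 627, with 588 in B6 and 28.3 in v6.5. Cd44, a hyaluronan receptor, had 7.56 and 1.49, against 93.3. For all 3 genes B6 lay with NZB and v6.5 with NOD or between. Axin2, the common readout of Wnt signalling, had 428 and 614 normalised reads in NOD, against 1651 in NZB, and was not called. Rnf43, which removes Wnt receptors from the surface, went the other way, with 252 and 122 in NOD, against 23.8, and was not called.

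Of the glycolytic and hypoxia-responsive genes, a part was lower in the NOD lines than in the 3 other libraries. Both lists were written after values had been seen, so their counts describe and do not test. Cells short of oxygen stabilise HIF1, which raises the enzymes that turn glucose into lactate. Of 21 glycolysis and carrier genes, 10 were lower in both NOD lines and 5 were called, with a median log2 difference of -1.32 (-1.84 in NOD replicate 1 and -0.83 in NOD replicate 5). B6 and v6.5 both lay with NZB in 8 genes of the list that passed the 2-fold limit in either direction and both with NOD in 2. Relative to NZB the median was -0.24 in B6 and -0.14 in v6.5. Ldha, lactate dehydrogenase A, on chromosome 7 (54102452 to 54110997 in mm9, plus strand), had 1470 and 2631 normalised reads in NOD replicates 1 and 5, against 12920 in NZB, with 8709 in B6 and 12030 in v6.5. It was 8.79-fold and 4.91-fold lower, with an edgeR adjusted p of 0.0215 and a limma adjusted p of 0.197. Slc16a3, the lactate exporter, had 86.2 and 251 in NOD, against 2256 in NZB. Tpi1, triose phosphate isomerase, had 876 and 1099, against 5971, and Pfkl, a phosphofructokinase, had 694 and 1335, against 4785. Aldoc, an aldolase, had 239 and 193, against 858. In each of these 5 B6 and v6.5 lay with NZB. Pgk1, phosphoglycerate kinase, was the exception and was called higher, with 180.0 and 291 in NOD, against 22.8 in NZB, but 53.9% of its 50-base stretches also occur in transcripts of other genes, so its reads are uncertain.

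Of 25 hypoxia-responsive genes 10 were lower in both NOD lines, 0 were higher, and 6 were called, with a median log2 difference of -0.74. Ndrg1, a stress-induced gene long used as a hypoxia marker, had 194 and 263 normalised reads in NOD, against 1069 in NZB, with 1060.0 in B6 and 1156 in v6.5. The 3 other libraries were thus within a narrow range, and both NOD lines were below them (edgeR adjusted p 0.0175). Bnip3, a mitochondrial mitophagy receptor, had 115 and 175, against 735. Egln3, one of the oxygen sensors that mark HIF for destruction, had 103 and 134, against 588. Ndufa4l2, a mitochondrial protein, had 7.56 and 15.9, against 290.1. In these 4 genes B6 and v6.5 lay with NZB. P4ha1, a collagen prolyl hydroxylase, had 664 and 673, against 3190, and Bhlhe40, a repressor, had 209 and 219, against 1651, with B6 and v6.5 between in both.

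The promoters of Ldha and Bnip3 are shown as one gene of each list (Ldha at chr7:46845554-46845853, plus strand, the first of its starts in the table, and Bnip3 at chr7:138909457-138909756, minus strand, both RefSeq, GRCm38.p6). Capitals mark ACGTG, the core of the hypoxia response element, or its reverse CACGT. The run CACGTG holds both, overlapping.
Ldha: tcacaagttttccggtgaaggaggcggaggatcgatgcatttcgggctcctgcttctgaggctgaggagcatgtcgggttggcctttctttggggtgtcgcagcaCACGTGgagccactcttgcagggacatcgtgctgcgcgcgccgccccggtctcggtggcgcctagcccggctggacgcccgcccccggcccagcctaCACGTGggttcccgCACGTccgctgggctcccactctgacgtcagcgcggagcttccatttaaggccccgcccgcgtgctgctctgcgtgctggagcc
Bnip3: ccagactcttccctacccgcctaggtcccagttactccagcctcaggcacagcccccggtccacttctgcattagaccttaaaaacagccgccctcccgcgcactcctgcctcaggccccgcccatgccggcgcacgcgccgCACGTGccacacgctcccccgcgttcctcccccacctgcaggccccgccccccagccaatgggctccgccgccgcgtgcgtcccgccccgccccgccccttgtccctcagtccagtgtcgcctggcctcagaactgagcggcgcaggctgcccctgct
The core stood in 19.7% of all promoters of this length. It was in 5 of 10 promoters found for the glycolytic genes lower in NOD and in 4 of 5 found for the lower hypoxia-responsive genes, lists that share a pathway and were chosen after values were seen.

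Several further genes were lower in the NOD lines, and for Tnn, Slfn8 and Slfn10-ps the NOD libraries were near the floor of 3 reads. Tnn, tenascin N, had 0 and 0.50 normalised reads in NOD, against 357 in NZB, with 6.88 in B6 and 5.39 in v6.5. On 1 read in NOD the ratio of NZB over NOD was 954 with a 95% counting interval from 170.2 to 37800. Slfn8, of the Schlafen family of interferon-inducible proteins on chromosome 11, had 0 and 0.9997, against 312, and its ratio was 416 with an interval from 114 to 3454. Its neighbours followed. Slfn9 had 87.7 and 42.3 in NOD, against 685 in NZB, and was called. The pseudogene Slfn10-ps had 3.03 and 2.49, against 86.0, and was not called at an edgeR adjusted p of 0.0504. Family members share sequence, and 14.6% of Slfn8 and 11.5% of Slfn9 stretches occur in other genes. Pmel, the protein of melanosome fibrils, had 60.49 and 124 normalised reads in NOD, against 2156 in NZB, with 118 in B6 and 75.4 in v6.5 (edgeR adjusted p 0.000179). Trpm1, a channel first known from melanocytes, had 115 and 358, against 1602, and was called. Of 9 tested pigment cell genes, a list also written after values were seen, 6 were lower in both NOD lines. Nrbp2 had 36.3 and 15.9 in NOD, against 925 in NZB, and S1pr1, a receptor of sphingosine 1-phosphate, had 84.7 and 52.8, against 785. B6 and v6.5 lay with NOD in both.

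Among the genes higher in NOD, Ipp had nearly equal NOD libraries. Ipp, an actin-binding kelch protein on chromosome 4 (116180154 to 116210840 in mm9, plus strand), had 3966 and 3804 normalised reads in NOD replicates 1 and 5, against 244 in NZB, with 154 in B6 and 208 in v6.5. It was 16.2-fold and 15.6-fold higher, with a log2 difference of 3.98 (SE 0.40) and an adjusted p of 0.0418 by limma and 0.00141 by edgeR. None of its 50-base transcript stretches occurred in another gene. Mgll, the lipase that breaks down monoacylglycerols, had 369 and 287 in NOD, against 5.18 in NZB. Plau, the urokinase plasminogen activator, had 236 and 352, against 11.4. In both B6 and v6.5 lay with NZB. Nlgn1, neuroligin 1, a synaptic adhesion protein, had 148 and 263 in NOD and 0 reads in NZB, and against a floor of 3 reads in the NZB library it was at least 66.2-fold higher. Gm9376 was at least 90.4-fold higher by the same floor, with 337 and 224 normalised reads in NOD and 0 in NZB, B6 and v6.5.

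The 2 simple-epithelium keratins that pair with each other were both called. Krt8 had 671 and 833 normalised reads in NOD, against 37.3 in NZB, with 83.9 in B6 and 148 in v6.5, and 26.9% of its stretches occur in other genes. Krt18 had 3418 and 1180 in NOD, against 203 in NZB, and was 16.8-fold and 5.81-fold higher. Keratins mark trophoblast, and the summed level of the 5 defining trophoblast markers was 141 and 35.9 normalised reads in NOD, against 26.9 in NZB. Of these, Cdx2, the factor that sets trophoblast fate, had 0 and 2 reads in NOD and 2 in NZB, while Gata3, another trophoblast factor, had 63.5 and 24.9 normalised reads in NOD, against 5.18 in NZB. Krt7, a further keratin, had 60.49 and 5.47 in NOD, against 16.6 in NZB, and Hand1 had 13.6 and 2.99, against 1.04. Over the whole trophoblast list, which also holds Krt8 and Krt18, 3 of 10 tested genes were higher in both NOD lines and 1 was lower, with medians of 1.67 in NOD replicate 1 and 0.79 in NOD replicate 5 on the log2 scale. These are small counts, and over all genes tested 6.58% were higher and 5.71% lower. The part of other cells in the keratins was not tested.

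Germline genes that DNA methylation keeps silent in most cells were higher in NOD. Of 41 tested, 18 were at least 2-fold higher in both NOD lines, 0 were lower, and 3 were called, with a median log2 difference of 1.17 (2.00 in NOD replicate 1 and 0.73 in NOD replicate 5). Dazl, an RNA-binding protein of germ cells, had 2826 and 1490.0 normalised reads in NOD, against 390 in NZB, with 325 in B6 and 633 in v6.5 (edgeR adjusted p 0.0405, limma 0.226). Mael, which acts with piRNAs, had 331 and 202, against 14.5. Tdrd12, a further piRNA factor, had 758 and 1028 in NOD, against 106 in NZB, and here B6 (538) and v6.5 (674) lay with NOD. Stra8, the gatekeeper of meiosis, is not on that list and was called with 971 and 227 in NOD, against 26.9 in NZB. Genes of the 2-cell-like state, a rare condition of ES cells that resembles the embryo after its first cleavage, showed a larger median difference. Of 16 tested, 13 were higher in both NOD lines and 1 was lower, with a median log2 difference of 3.49, and B6 and v6.5 lay with NZB in all 14. Only Gm5662 of these was called. Zscan4d, a telomere factor of that state, had 118 and 354 normalised reads in NOD, against 12.4 in NZB, and missed the threshold at an edgeR adjusted p of 0.0543. Dux, the factor that starts the state, had 62.0 and 38.3, against 3.11, and Zfp352 had 51.4 and 87.6, against 4.15, and neither was called. Many members of this list are near-identical copies, such as Gm5662 with 77.9% of its stretches shared, and their counts are uncertain. Gm2022, called by limma, is of that kind with 97.2% shared. It had 357 and 359.9 normalised reads in NOD and 0 reads in NZB, so that it was at least 115-fold higher.

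**Figure D4:**
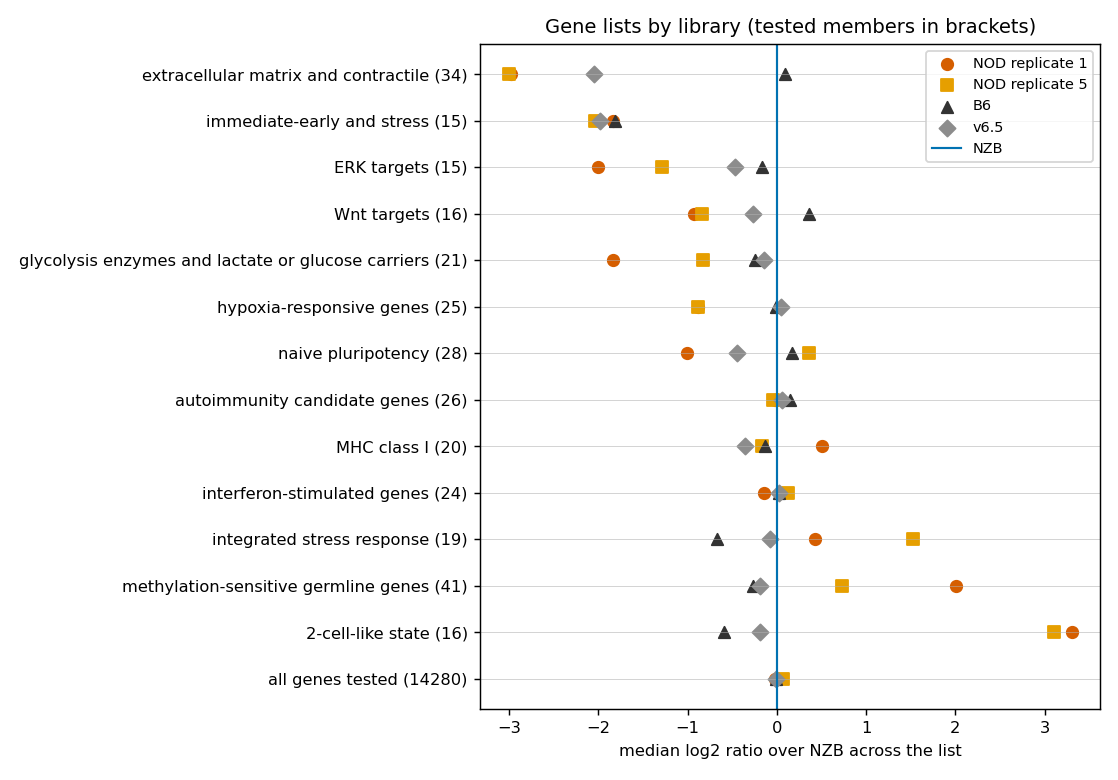
Median log2 ratio over NZB (x axis) of the tested members of 13 gene lists and of all genes tested, with 1 point per library for NOD replicates 1 and 5, B6 and v6.5 and a line at NZB. Matrix genes lie near -3 in both NOD lines and near 0 in B6, immediate-early genes lie near -2 in all 4 libraries, and genes of the 2-cell-like state lie above 3 in the NOD lines alone.

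A ribosomal gene and several small RNAs had large differences. Rpl26, a protein of the large ribosomal subunit on chromosome 11 (68715068 to 68718036 in mm9), had 7071 and 5710.0 normalised reads in NOD, against 39.4 in NZB, with 877 in B6 and 1429 in v6.5, and limma gave an adjusted p of 0.00222. Gm15772 overlaps it and had the same counts in every library, so both are 1 measurement, and 22.7% of the Rpl26 stretches occur in other genes. Of 56 ribosomal protein genes tested, 5 were higher in both NOD lines and 3 lower, with a median log2 difference of 0.19. Over all genes tested 6.58% were higher and 5.71% lower, so these counts are near the background and are no result about the list. Rps2 was called higher and Rpl3 lower, with 151 and 148 normalised reads in NOD, against 993 in NZB. Of their stretches 43.0% in Rps2 and 35.0% in Rpl3 occur in other genes, so their reads are uncertain. Rprl3, an RNase P RNA-like gene on chromosome 8, had 15380 and 6673 in NOD, against 93.3 in NZB, and was called by limma at an adjusted p of 0.0149. Rmrp, the catalytic RNA of RNase MRP, made up 3.08% and 1.91% of all reads in NOD, against 0.502% in NZB. Snord17 (3232 and 1592, against 376) and Scarna6 (1916 and 671, against 169), guides of RNA modification, were called by edgeR. These RNAs carry no poly(A) tail as a rule, while the libraries were selected for it, and the part of that selection was not tested.

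In 10 called genes NZB alone was low, with B6 and v6.5 on the NOD side. Cyct, the testis form of cytochrome c, had 655 and 476 normalised reads in NOD, against 40.4 in NZB, with 698 in B6 and 477 in v6.5. Slc4a5, a bicarbonate transporter, had 570.1 and 999 in NOD, against 62.2. Hist1h4j, a histone H4 gene, had 90.7 and 180 in NOD, against 1.04 in NZB, which is 1 read, and the ratio was 152 with a 95% counting interval from 27.2 to 6025. Laptm5, a lysosomal protein of blood cells, had 281 and 311, against 40.4, with 857 in B6. Laptm5 stands on the leukocyte list, of which 2 of 8 tested genes were higher in both NOD lines and 0 lower, with B6 and v6.5 on the NOD side in both. With 6.58% of all genes tested higher in both lines, 2 genes of so short a list are no result about it. The sum of the 5 defining leukocyte markers was 60.49 and 34.86 normalised reads in NOD, against 67.4 in NZB, and Ptprc was at 0 reads in NZB and in NOD replicate 1.

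The study asked about immune genes, and 5 lists of such genes, given next, held 0 called genes between the NOD lines and NZB. Over all genes tested edgeR called 1.05%, so that 0 among lists of this size is near the background and is no result about them. Likewise, 6.58% of all genes tested were at least 2-fold higher in both NOD lines and 5.71% lower. The small counts of higher and lower genes below are to be read beside these shares. On chromosome 17, of the genes lying between H2-K1 and H2-D1, 1 of 63 tested genes was called, Ly6g6e, which was lower in NOD. Of 26 autoimmunity candidate genes tested, 3 were higher in both NOD lines, 0 were lower and 0 were called by limma or edgeR (unadjusted p under 0.05 in 2 by limma and 1 by edgeR), with a median log2 difference of 0.14 (-0.02 in NOD replicate 1 and -0.04 in NOD replicate 5). The 3 were Ifih1, a sensor of viral RNA, Irf5 and Ikzf3. Ifih1 had 9.08 and 11.4 normalised reads in NOD and 0 reads in NZB, and was at least 3.30-fold higher against a floor of 3 reads. Of 20 MHC class I genes 2 were higher and 1 lower, and 0 were called by limma or edgeR (2 at an unadjusted p under 0.05 by each). H2-D1, a classical class I heavy chain, had 302 and 307 in NOD, against 97.4 in NZB, with 129 in B6 and 198 in v6.5, and its edgeR adjusted p was 0.372. H2-K1, the other classical chain, had 144 and 157 in NOD, against 134 in NZB. The peptide transporters Tap1 (383 and 72.7, against 57.0) and Tap2 (156 and 63.2, against 32.1) differed more between the NOD lines than NOD replicate 5 did from NZB, and neither was called. MHC class II genes gave 2 of 8 higher and antigen processing genes 2 of 13, and interferon-stimulated genes 2 of 24 higher and 2 lower, with 0 calls by limma or edgeR in each, and 1, 2 and 3 genes at an unadjusted p under 0.05 by either tool. For the class II chain H2-Eb1 NZB lay beside NOD, with 803 and 616 normalised reads in NOD, 639 in NZB, and 28.9 in B6 and 26.9 in v6.5. Aim2, a sensor of cytosolic DNA, had 184 and 119.5 in NOD, against 129.5 in NZB, with 1917 in B6 and 1053 in v6.5. Crygd, the lens crystallin, had 253 and 594 in NOD, against 87.0 in NZB, while B6 (2.76) and v6.5 (5.39) were near the floor, so that NZB lay between, and the adjusted p of NOD against NZB was 0.211 by edgeR. Aire, which drives tissue antigens in the thymus, was named after its values were seen. It was called lower, with 18.1 and 27.9 in NOD, against 233 in NZB, with B6 at 234 and v6.5 at 175 (edgeR adjusted p 0.0156). Gbp9, of the interferon-induced guanylate-binding proteins, was outside the lists and was likewise named after its values were seen. It was called lower, with 9.08 and 2.49 in NOD, against 151 in NZB, and B6 lay between at 19.3 and v6.5 with NOD at 6.73.

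Naive pluripotency genes were split between the NOD lines. Of 28 tested, 5 were lower in both lines, 1 was higher and 0 were called by limma or edgeR (5 at an unadjusted p under 0.05 by each), and the median log2 difference was -1.002 in NOD replicate 1 and 0.36 in NOD replicate 5. Of all genes tested, 6.58% were higher and 5.71% lower in both lines, and 1.05% were called by edgeR and 0.077% by limma. Thus 0 calls here, and in the stress response list below, is near the background and no result. Klf4 had 629 and 592 normalised reads in NOD, against 2146 in NZB, and Stat3, which carries the LIF signal, had 422 and 408, against 1389. Their edgeR adjusted p were 0.0565 and 0.0679. Dppa3, of the naive state and the germline, had 1043 and 1084 in NOD, against 233 in NZB, with 30.3 in B6 and 32.3 in v6.5 (edgeR adjusted p 0.0576). Nanog had 1919 and 7146 in NOD, with NZB inside that range at 3758. Integrated stress response genes, which ATF4 raises when amino acids run short, were 5 of 19 higher in both NOD lines, 0 lower and 0 called by limma or edgeR (unadjusted p under 0.05 in 5 by limma and 6 by edgeR). Trib3 had 381 and 1357 normalised reads in NOD, against 165 in NZB, and Cebpb had 92.2 and 97.1, against 11.4.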

How the data were processed

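RNA of 5 mouse ES cell libraries had been sequenced as single 50-base reads after poly-dT selection with strand kept. Per the labels, the authors used CASAVA 1.8.2, STAR 2.2.0c, HOMER and edgeR with mm9, and the file header shows RefSeq exon counts by HOMER on 1 strand. The deposited signal values are these read counts rescaled to equal totals. Dividing by each column's step gave whole reads (within 0.05 for 100% of values below 3000), and these are the recovered reads. The deposited log2 fold changes, p-values and FDR values of the authors' own comparisons were not used.

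Genes were kept by filterByExpr (14280 of 24016, leaving 9736), and 27 symbols turned into dates are not named. Values were divided by TMM factors, and log2(value + 1) was fitted with limma-trend over all 5 libraries, 1 mean per strain, for NOD minus NZB, with Benjamini-Hochberg adjustment. Fold changes of low genes are understated on that scale. The edgeR quasi-likelihood fit on recovered reads was planned as an alternative. limma 3.58.1, DESeq2 1.42.0 and edgeR 4.0.16 ran in R 4.3.3, and the fits were tested on simulated data. Nothing says that the NOD lines are separate cultures beyond their numbers, so p-values measure only the spread between these libraries. Counting intervals (95%) and the floor of 3 reads cover counting error only.

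The members and gene lists were chosen with earlier results of these data known. Named genes were, per direction and class of B6 and v6.5, the 5 with the largest smaller log2 ratio of both lines and at least 50 normalised reads, plus called list members. As limma called few, the same rule was applied to edgeR's calls, a choice made after the data were seen, and further genes are named as examples of lists or classes. Reads of all strains were aligned to the C57BL/6 genome, and what strain variants do to single genes was not tested. Sequence shared between genes was measured as 50-base stretches of GENCODE M21 transcripts, for 154 of 156 genes sought, of which 10 had over 50% and 122 under 10% shared. Among those over 50% were the called genes Gm1821 (84.9%), Gm2016 (81.3%), Ahcy (68.7%), Kpna2 (62.6%), Snord22 (100%) and Mir6516 (100%), whose reads are uncertain. Called genes with a smaller shared part included Gm12794 (47.3%), Loxl2 (45%), Gm1995 (44.3%), Hist1h2bm (43.8%), Vcp (40.5%) and Hist1h4j (24.6%). Gene coordinates are mm9 and promoters GRCm38.p6.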

Additional observations from a re-analysis of the deposited data

How the results depend on the processing

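No gene among the 150 reversed under any alternative. This was largely fixed in advance, as all 150 lay at least 2-fold from NZB in each NOD line, so it is no support for them. The counts of calls moved widely, and the cause was not tested. For limma, with 5 higher and 6 lower, DESeq2 size factors gave 25 and 32, the deposited scaling without TMM 41 and 61, DESeq2's own test 95 and 116, edgeR 50 and 100, a mean of at least 50 normalised reads 20 and 20, no filter 23 and 1251, and a pseudocount of 10 gave 3 and 3. A fit of the 3 NOD and NZB libraries alone gave 6 and 3. These alternatives kept from 4 (no filter) to all 11 of the limma calls. For edgeR, with 50 higher and 100 lower, DESeq2 size factors gave 113 and 179, no TMM 113 and 234, no filter 140 and 211, and a mean of at least 50 gave 24 and 49. DESeq2 kept 149 of the 150. B6 and v6.5 as 1 group, added after the data were seen, gave 20 and 15 for limma and 20 and 38 for edgeR, keeping 5 of 11 and 58 of 150. That grouping without 1 NOD replicate, in turn, gave counts from 0 to 0 for each. The both-line count of 940 higher and 815 lower was 270 and 284 at 4-fold, and with 1 NOD replicate left out ranged from 1562 to 2043 higher and from 1516 to 1609 lower. Genes with B6 and v6.5 both with NOD were 118 higher and 349 lower without TMM, against 219 and 206. For 27 of the 150 called genes the fold moved by over 1.5 times without 1 NOD line. No paired analysis was possible because NZB has a single library. With 1 NZB library, its own spread is unknown.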

Other observations

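Chromosome 8 stood apart from the other autosomes. The median log2 difference of NOD against NZB over its 763 tested genes was 0.32, with 0.30 in NOD replicate 1 and 0.37 in NOD replicate 5, while the medians of the 18 other autosomes lay between -0.14 and 0.07. Relative to NZB the chromosome 8 median was 0.21 in v6.5, the same direction as NOD, and -0.32 in B6, the opposite direction. On chromosome 8, 74 of the 763 genes were at least 2-fold higher in both NOD lines and 30 were lower. Over all genes tested these shares were 6.58% and 5.71%. The X chromosome had a median of -0.05 over 499 genes.

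Y-linked genes were present in the NOD and NZB lines. Ddx3y had 389 and 400.3 normalised reads in NOD, against 242 in NZB, with 71.6 in B6 and 52.5 in v6.5, and Eif2s3y had 431 and 369, against 180.3, with 9.64 in B6 and 25.6 in v6.5. Xist stayed below 10 normalised reads in the NOD and NZB lines.

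Imprinted genes had 0 higher and 2 lower of 36 tested, with a median log2 difference of 0.01, and of 15 heat shock genes and 16 genes of DNA methylation and demethylation 0 passed the 2-fold limit in both NOD lines. Over all genes tested 12.3% passed that limit in either direction, so 0 in a list of this size is no result about it. Of 36 clustered histone genes 4 were higher and 1 lower, and Hist4h4 was called with 348 and 303 normalised reads in NOD, against 18.6 in NZB. Of 9 crystallins 4 were higher and 1 lower, and 0 were called by limma or edgeR (3 at an unadjusted p under 0.05 by each). As edgeR called 1.05% of all genes tested, 0 calls among 9 genes is near the background.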
